A study of Mus musculus with 4 samples.

Results

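Immediate early transcription factors are genes whose transcription starts within minutes of a stimulus, with no need for new protein. Their mRNAs and proteins are as a rule short-lived, and in muscle they are known for following exercise, stretch, denervation and mitogens. Of 10 such genes (Fos, Fosb, Jun, Junb, Jund, Egr1, Ier2, Klf2, Klf4 and Nr4a1), chosen by name, 9 were listed both for mouse heart, among 10791 gene symbols, and for tibialis anterior (TA), among 10352. Fosb, which encodes a Fos family protein, was listed for neither tissue, which gives no level for it and does not place it at 0. Heart and TA, a fast hindlimb muscle, came from 10-week-old male C57BL/6J mice with no treatment named in the labels, and each tissue gave 1 library of ribosome-protected fragments (RPF) and 1 of total RNA depleted of ribosomal RNA. RPF are the mRNA pieces that ribosomes shield from nuclease. Both libraries of a tissue came from frozen muscle lysed in cycloheximide, and the labels do not say how many animals went into a lysate. No group had a second library, so no difference below has a replicate check, and every interval is a 95% interval that covers counting error only.

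Fos, Jun, Junb and Jund encode subunits of AP-1, a dimer of a Fos or Jun protein with a Jun partner that binds DNA through basic leucine zippers. Egr1 encodes a zinc finger factor induced through the kinase ERK and serum response factor. Nr4a1 encodes an orphan nuclear receptor. Klf2 and Klf4 encode Krüppel-like zinc finger factors, both well known in endothelium exposed to flow, and Ier2 encodes a small nuclear protein of less settled function. Cyclic AMP response elements, whose core TGACG is bound by CREB and ATF proteins, are a known part of several immediate early promoters, and repeats of ATTTA in the 3′ untranslated region (UTR) are a known mark of mRNAs that decay fast.

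RefSeq promoters (build GRCm38.p6, 250 bases before to 50 after the start site) were searched for 8 of the 10 genes, all but Egr1 and Ier2. The core TGACG, searched on both strands, lay in 6 of these 8 and in 20.8% of 32851 mouse promoters. The hexamer GGGCGG, a site of Sp and Krüppel-like factors, also lay in 6 of 8 (35.7% of all), and TATAAA in the promoters of Fos and Junb (13.6% of all). The full element, TGACG followed by TCA (1.79% of all), and the CArG box of serum response factor (1.63%) were not matched in these windows. Nor was the AP-1 site (5.20%), and the CCAAT box lay in 2 of 8, Jun and Junb (37.4% of all). The core nearest the start site is shown for each of the 6 genes, since its share over all promoters was the lower of the 2 motifs found in 6 of 8. Capitals mark TGACG or its reverse complement CGTCA, and each stretch reads 5′ to 3′ on the strand of the gene. In that order the stretches are chr12:85473812-85473841 (plus), chr7:19310088-19310117 (minus), chr8:84978837-84978866 (minus), chr15:101266794-101266823 (plus), chr8:72318812-72318841 (plus) and chr4:55532690-55532719 (minus).
Fos: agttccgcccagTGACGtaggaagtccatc
Fosb: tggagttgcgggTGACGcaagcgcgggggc
Junb: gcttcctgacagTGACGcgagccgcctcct
Nr4a1: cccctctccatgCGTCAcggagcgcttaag
Klf2: ctggtttgtTGACGccgtcgccatagggac
Klf4: ctgcctggctggCGTCAcggcctggccccg

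The motif began 66 bases before the start site in Fos, 60 in Fosb, 106 in Junb, 40 in Nr4a1, 241 in Klf2 and 232 in Klf4. Nr4a1 had 4 such cores and Fos had 2. In the 3′ UTR, 8 of the 9 listed genes had at least 1 ATTTA, against 67.6% of 11152 genes whose listed transcript was matched in GENCODE, so a match was common among all genes. At 5.52 per kb Nr4a1 lay at percentile 95.2 and at 4.91 per kb Fos lay at percentile 93.3 of those genes, while Ier2 had none. The 30 bases densest in ATTTA are shown for these 2 mRNAs, the richest of the 9, at chr12:85477100-85477129 (plus) for Fos and chr15:101274701-101274730 (plus) for Nr4a1 in build GRCm38. Capitals mark ATTTA, overlapping copies included.
Fos: ttgtgttttcaATTTATTTAttaagatgga
Nr4a1: gATTTAtatttgtgtattttcctggATTTA

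Gene structure varied among the 9. Jun, Junb, Jund and Ier2 each had 1 exon in the matched transcript, 4 of 9 genes against 1.79% of all, while Klf4 had 5 and Nr4a1 had 7. The coding sequences of all 9 were rich in G and C, with 58.4 to 70.6% against a median of 53.0% over all genes, and Klf2 and Jund (70.6% each) lay at percentile 99.6. Listed coding lengths ran between 660 and 1800 nt, on both sides of the median of 1422 nt.

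The deposited values are in RPM, the usual reads-per-million scale, here relative to coding reads. As estimated from the step between low values, 1 RPM was 28.2 RPF reads and 9.33 RNA reads in heart, and 28.6 RPF reads and 16.1 RNA reads in TA. RNA thus set the precision of most ratios below. Fast skeletal and cardiac markers separated the tissues as their labels say. Myh6, the adult cardiac myosin heavy chain, was at 60773 RPM of RNA in heart, and Myh4, the fast myosin heavy chain, at 101254 RPM of RNA in TA, each unlisted for the other tissue.

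Of these mRNAs, Jun lay above the median gene in both muscles, Jund in heart and Nr4a1 in TA, and the other 6 lay below it in both. Per kilobase of coding sequence, Jun and Jund were the most abundant of the 9 in heart RNA, with 20.1 and 27.9 RPM per kb (percentiles 59.9 and 69.3 of all listed genes), and the other 7 lay between 2.16 and 9.84 RPM per kb, under the heart median of 14.8. In TA RNA Nr4a1 stood first with 54.3 RPM per kb (percentile 88.2) and Jun second with 22.8 (percentile 73.1). Next came Jund with 8.83 RPM per kb, and the other 6 were at 2.41 or less, against a median of 9.39. Egr1, at 0.313 RPM per kb of TA RNA, was lowest (percentile 0.531). By RPF per kilobase the order was Jun (53.2), Klf2 (38.1), Jund (24.6), Junb (17.1), Klf4 (12.4), Ier2 (10.7), Egr1 (5.73), Nr4a1 (4.09) and Fos (0.624) in heart. In TA it was Nr4a1 (154), Jun (62.9), Klf2 (14.4), Jund (8.64), Junb (7.99), Klf4 (4.94), Ier2 (4.67), Egr1 (1.05) and Fos (0.985), all in RPM per kb. In TA the neighbours Jund and Junb, Klf4 and Ier2, and Egr1 and Fos were close to each other, and with 1 library their order has no spread to be read against.

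**Figure D1:**
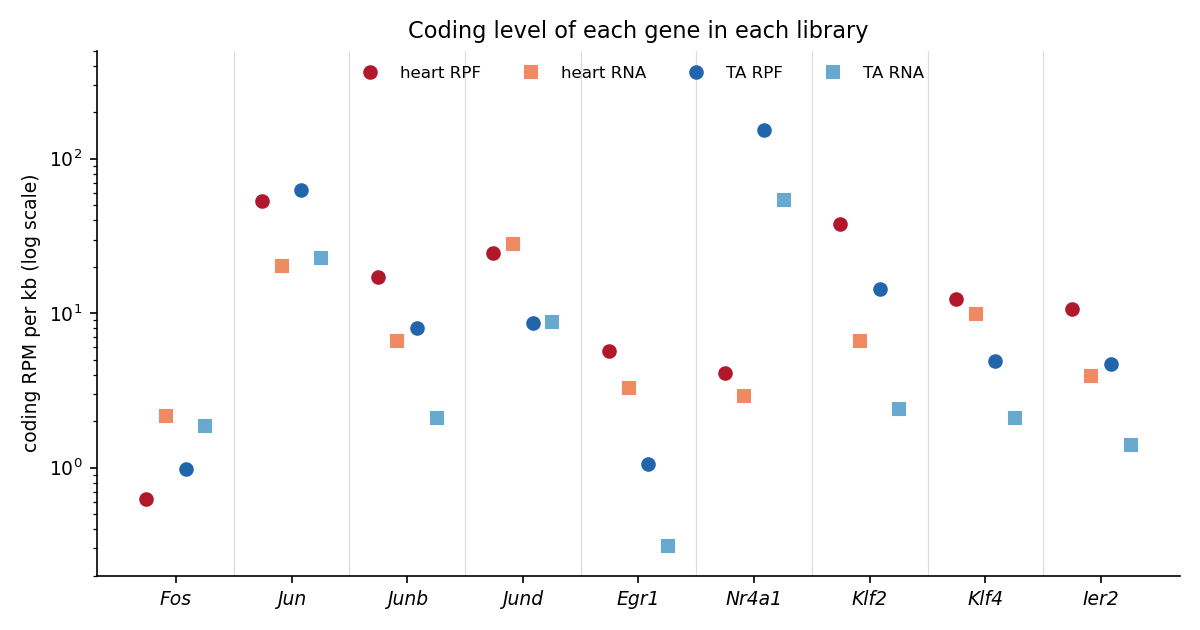
Coding level of the 9 listed genes in the 4 libraries, as RPM per kilobase of coding sequence on a log axis (circles RPF, squares RNA; 1 library each, no error shown). Nr4a1 is at 154 RPM per kb of RPF in TA against 4.09 in heart, and Fos is the only gene whose circle lies below its square in both tissues by more than a small step.

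Among Fos, Jun, Junb and Jund, Fos was the lowest in RPF and RNA of both muscles, though close to Junb (2.17 RPM) in TA RNA. Fos had 0.71 RPM of RPF and 2.46 RPM of RNA in heart (20 and 23 reads) and 1.12 and 2.11 RPM in TA (32 and 34 reads). The ratio of RPF to RNA was 0.287 in heart (interval 0.15 to 0.547) and 0.531 in TA (0.317 to 0.886), the lowest of the 9 in each tissue. Relative to the median gene, whose ratio was 0.737 in heart and 0.835 in TA, Fos stood at log2 -1.22 in heart and -0.60 in TA. This log2 ratio relative to the median gene, computed with 0.1 RPM added to each value, is called efficiency here. The heart value of Fos passed 2-fold with few reads behind it, and became -0.62 with 1 RPM added in place of 0.1 and -0.29 when reads of both UTRs were added to the coding reads.

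Jun, the main Jun partner in AP-1, was well expressed and densely occupied. It had 53.1 RPM of RPF and 20.1 RPM of RNA in heart, and 62.9 and 22.8 RPM in TA. Its RPF to RNA ratio was 2.64 in heart (2.27 to 3.09) and 2.76 in TA (2.46 to 3.10), and these intervals overlapped. Efficiency was 1.84 in heart and 1.72 in TA, at percentiles 96.2 of 10680 genes and 95.7 of 10029 genes. Junb, a Jun family subunit that can oppose Jun at some promoters, had a similar ratio at a lower level. It had 17.6 RPM of RPF and 6.85 RPM of RNA in heart, and 8.22 and 2.17 RPM in TA. Its efficiency was 1.79 in heart and 2.13 in TA (percentiles 95.7 and 98.0). Jund, the Jun subunit that is usually present without a stimulus, was the exception in the family. It had 25.1 RPM of RPF against 28.5 RPM of RNA in heart and 8.81 against 9.01 in TA, which gave ratios of 0.880 (0.763 to 1.02) and 0.980 (0.796 to 1.21). The efficiency of Jund was 0.26 in heart and 0.23 in TA, near the median gene, and its intervals lay below those of Jun and Junb in both tissues. Its efficiency became 0.72 in heart and 0.81 in TA when reads of both UTRs were added to the coding reads. With a linear trend on coding G and C removed, it was -0.45 and -0.62.

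Nr4a1 had the widest difference between the muscles. It had 7.37 RPM of RPF and 5.24 RPM of RNA in heart, against 278 RPM of RPF and 97.7 RPM of RNA in TA. The TA levels were 37.7-fold the heart levels in RPF (32.8 to 43.5) and 18.6-fold in RNA (14.0 to 25.3). Efficiency was 0.92 in heart and 1.77 in TA. The log2 heart over TA ratio, again with 0.1 RPM added, was -4.19 in RNA and -5.22 in RPF, at percentiles 0.254 and 0.203 of 9843 genes listed for both tissues with a mean of at least 1 RPM of RNA.

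Egr1 went the other way. It had 9.14 RPM of RPF and 5.24 RPM of RNA in heart (258 and 49 reads), against 1.68 and 0.5 RPM in TA (48 and 8 reads). Heart RNA was 10.6-fold TA RNA, with an interval of 4.96 to 25.8 that the 8 TA reads made wide, and heart RPF was 5.44-fold (3.98 to 7.57). Its efficiency in heart was 1.23, which became 0.80 when reads of both UTRs were added. In TA its RNA was under the minimum of 1 RPM used for efficiencies, and its ratio of 3.38 had an interval of 1.59 to 8.28.

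The Krüppel-like factors were both higher in heart, and Klf2 had the highest efficiency of the 9 genes in each tissue. Klf2 had 40.3 RPM of RPF and 6.96 RPM of RNA in heart, and 15.2 and 2.55 RPM in TA. The ratio was 5.79 in heart (4.51 to 7.55) and 6.00 in TA (4.35 to 8.47), and the efficiency of 2.96 in heart and 2.79 in TA lay at percentile 99.5 in both. The Klf2 coding RNA was thin beside its 3′ UTR, which took 69.5% of the gene's RNA reads in heart and 58.9% in TA, where the median gene had 30.2 and 31.4%. This share was also high for Egr1 (52.9 and 70.2%), Klf4 (55.1 and 59.4%) and Ier2 (39.5 and 59.1%). For Junb (19.6 and 25.8%) and Nr4a1 (22.3 and 25.4%) it was below the median gene. With the reads of all 3 parts of the transcript the efficiency of Klf2 was 1.90 and 2.26, still past 2-fold. Klf4, the relative of Klf2 that is also known from epithelium and stem cells, had 18.0 RPM of RPF and 14.2 RPM of RNA in heart, and 7.14 and 3.04 RPM in TA. Klf4 stood at 0.77 in heart and at 1.47 in TA, and at -0.03 and 0.58 with the reads of all 3 parts, so its TA value then no longer passed 2-fold. Ier2 had 7.05 RPM of RPF and 2.57 RPM of RNA in heart, and 3.08 and 0.93 RPM in TA (15 RNA reads). Ier2 had an efficiency of 1.86 in heart and a ratio of 3.31 in TA (1.90 to 6.16), where it was under the minimum.

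In heart, 5 of 9 members (Jun, Junb, Egr1, Ier2 and Klf2) had an efficiency at least 2-fold above the median gene, which 16% of 10680 genes did, and 1 (Fos) at least 2-fold below it, which 17.8% did. The median of the 9 was 1.23. In TA, 5 of the 7 with at least 1 RPM of RNA (Jun, Junb, Klf2, Klf4 and Nr4a1) were at least 2-fold above the median gene, against 15.4% of 10029 genes, and none of the 7 was 2-fold below, against 18.7%. Their median was 1.72. At a minimum of 5 RPM only Jun, Jund and Nr4a1 were left in TA, with 2 of the 3 past 2-fold. Across genes efficiency went with base composition and with coding length: Spearman rho with percent G and C was 0.20 in heart and 0.23 in TA, and with length -0.39 and -0.35 (10599 and 9957 genes for G and C, genes of a library sharing its depth and not being independent). The 1824 genes in heart and 1641 in TA within the members' range of G and C had a median efficiency of 0.20 in each tissue, and 22.8 and 22.9% of them were at least 2-fold above the median gene. Single-exon genes had a median of 0.53 in heart (172 genes) and 0.65 in TA (149 genes). With a linear trend on G and C removed, the same count of 5 was found in heart and 4 of 7 in TA, where Klf4 came to 0.98. Removal of a trend on length gave 6 and 5.

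**Figure D2:**
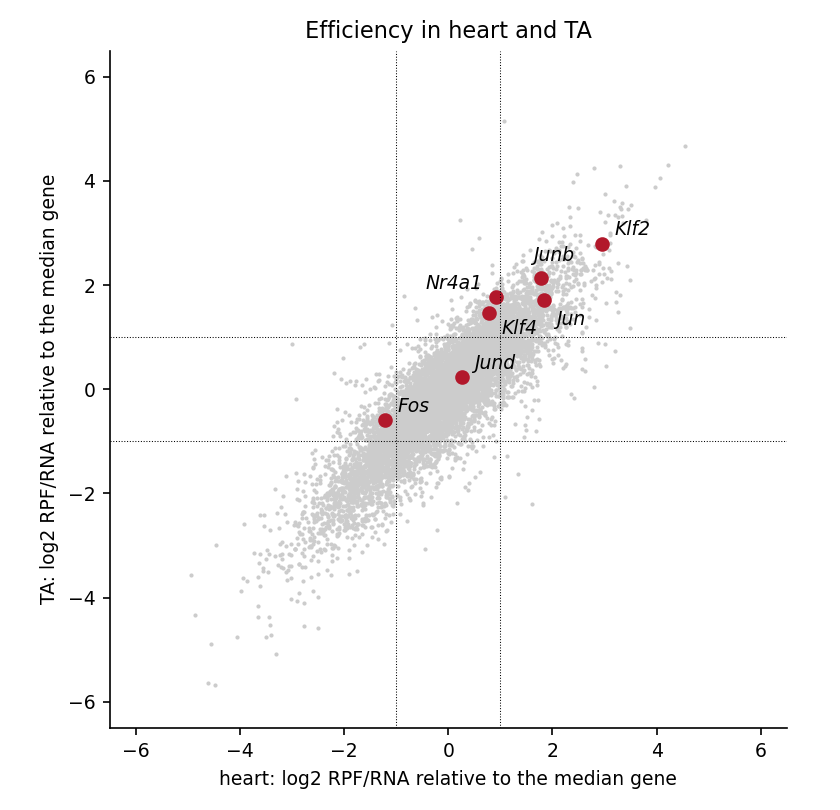
Efficiency (log2 RPF over RNA relative to the median gene) in heart on the horizontal axis and in TA on the vertical axis, for genes whose RNA reached 1 RPM in both (grey points) and the 7 members among them (red). Dotted lines mark 2-fold. Klf2 lies at 2.96 and 2.79, Fos at -1.22 and -0.60, and Jund near the centre.

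RNA and RPF of these genes differed between the muscles in 3 patterns. Egr1, Klf4, Jund, Junb, Klf2 and Ier2 were at least 2-fold higher in heart in both RNA and RPF, Nr4a1 was at least 2-fold lower in both, and Jun and Fos were within 2-fold. These 6 of 9 stand against 35% of 9843 genes higher in heart RNA and 30.1% higher in RPF, and the 1 of 9 against 3.88 and 5.06% lower. Log2 heart over TA in RNA was 3.15 for Egr1, 2.19 for Klf4, 1.65 for Jund, 1.61 for Junb, 1.41 for Klf2, 1.37 for Ier2, 0.21 for Fos and -0.18 for Jun. In RPF it was 2.38, 1.32, 1.50, 1.09, 1.40, 1.17, -0.59 and -0.24 for the same 8 genes. The 3 patterns rest on these point values. Counting intervals of plain heart over TA ratios reached below 2-fold in RNA for Ier2 (1.39 to 5.66) and Klf2 (1.82 to 4.15). In RPF they did so for Junb (1.83 to 2.51) and Ier2 (1.77 to 2.98). The median gene itself was 0.70 higher in heart RNA and 0.60 higher in heart RPF, as log2, and these ratios include that shift.

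Relative to the median gene, only Egr1 (2.46) and Klf4 (1.49) were at least 2-fold higher in heart RNA, which 13.5% of genes were, and Nr4a1 (-4.89) was lower, as 10.4% were. In RPF on this scale Egr1 (1.78) was higher, against 11.9% of genes, and Nr4a1 (-5.82) and Fos (-1.19) were lower, against 12%. Jund was at 0.95 in RNA and 0.90 in RPF, and Jun, whose log2 ratios before centring were close to 0, was at -0.88 and -0.84. The counting interval of the Jun RPF ratio, heart over TA, was 0.789 to 0.906 and that of its RNA ratio 0.738 to 1.06. Fos had few reads, with heart over TA intervals of 0.343 to 1.14 in RPF and 0.657 to 2.04 in RNA. The RPF interval lay below the median gene's ratio of 1.51, while the RNA interval included the median gene's 1.62. Both intervals of Fos also included equal levels in the 2 muscles.

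**Figure D3:**
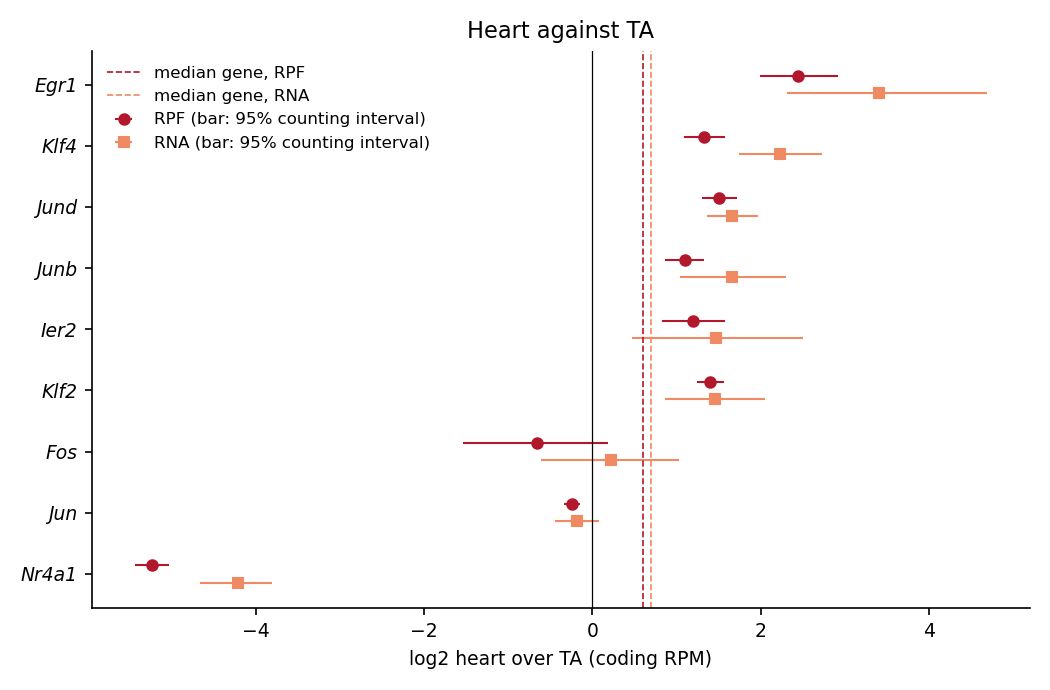
Log2 heart over TA of coding RPF (circles) and RNA (squares) for the 9 listed genes, as plain ratios with no RPM added, with 95% counting intervals. Dashed lines mark the median gene at 0.60 for RPF and 0.70 for RNA; Nr4a1 lies at -5.24 and -4.22, far to the left of both, and Egr1 at 2.44 and 3.40 to the right.

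These are whole tissues, in which fewer cells of a type and less RNA per cell cannot be told apart. All 10 endothelial markers, each listed in both tissues, passed 2-fold toward heart in RNA (log2 1.29 to 2.75, median 1.83), with summed levels of 1344 RPM in heart and 317 RPM in TA. In RPF 8 of the 10 did (median 1.23). Over all genes, 35% passed 2-fold toward heart in RNA and 30.1% in RPF. The log2 RNA ratios of Klf2, Klf4, Jund, Junb and Ier2 lay within the endothelial range, that of Egr1 (3.15) above it. The wider fibroblast range (-0.85 to 2.56) held every one of these but Egr1, and also Fos and Jun. Lying in a range thus does not tell the cell types apart. All 7 macrophage and leukocyte markers listed in both tissues were also at least 2-fold higher in heart RNA (1.78 to 2.83), and the markers listed in each tissue summed to 214 RPM in heart and 35.0 RPM in TA. Smooth muscle and pericyte markers were at least 2-fold higher in heart RNA in 6 of 8, and fibroblast markers in 2 of 8. Summed likewise over the markers listed in each tissue, they had 1780 and 834 RPM, and 3320 and 2434 RPM. In RPF all 7 macrophage and leukocyte markers passed 2-fold toward heart, and 2 of 8 smooth muscle and pericyte markers. Among the 8 fibroblast markers 1 was at least 2-fold higher in heart RPF and 2 were lower. The 2 erythroid markers listed in both differed most, with log2 RNA ratios of 4.74 for Hbb-b1 and 4.39 for Alas2, above that of Egr1, and the listed erythroid markers summed to 12499 RPM in heart and 472 RPM in TA. The part of these cells in the ratios of the immediate early genes was not tested.

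By point value, efficiency of the 7 members measured in both tissues differed by less than 2-fold between them, as it did for most genes. Values ran between -0.84 (Nr4a1) and 0.16 (Klf2) as heart minus TA on the log2 scale, with none past 2-fold in either direction, against 4.07% of 9635 genes higher and 2.34% lower in heart. Heart efficiency was lower for Nr4a1 (-0.84 without added RPM, counting interval -1.29 to -0.38) and for Klf4 (-0.72, -1.24 to -0.19), beyond counting error. Both point values were within 2-fold, but both intervals reached past it. For Junb (-0.38, -1.02 to 0.25), Fos (-0.70, -1.81 to 0.41), Jun (0.11, -0.16 to 0.39), Jund (0.02, -0.33 to 0.38) and Klf2 (0.13, -0.46 to 0.72) the intervals included 0. These intervals use a normal approximation to the log of the counts.

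Jun, Jund and Fos had the largest shares of their footprints in the 5′ UTR of the 9 genes in both tissues, with Junb next in heart. In heart 39.0% of the RPF reads of Jun lay in its 5′ UTR (interval 37.1 to 40.8%) and 25.9% of its RNA reads (22.1 to 29.9%), against median genes at 1.78 and 1.08%. In TA these shares were 24.5% of RPF (22.8 to 26.3%) and 28.4% of RNA (25.4 to 31.5%), against medians of 1.16 and 1.03%. The listed 5′ UTR of Jun is 951 nt, about as long as its 999 nt coding sequence. Per nucleotide its 5′ UTR held 0.762 of the coding RPF density in heart (0.704 to 0.824) and 0.353 in TA (0.321 to 0.387), with RNA at 0.721 and 0.713, so the RPF density differed between tissues while the RNA density was alike to within its intervals. The log2 ratio of 5′ UTR to coding RPF was 1.11 higher in heart than in TA for Jun, at percentile 79.8 of 1814 genes with at least 1 RPM of RPF in both parts in both tissues. The median of those genes was 0.37 higher in heart (quartiles -0.19 and 1.00), so the libraries differed in this direction across genes.

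Jund had 13.0 RPM of RPF and 2.89 RPM of RNA in its 5′ UTR in heart, against 6.89 and 3.29 RPM in TA. The share of RPF was 34.0% in heart (31.2 to 36.9%) and 43.6% in TA (39.0 to 48.3%), and the share of RNA 6.03% (4.01 to 8.65%) and 19.1% (14.6 to 24.2%). Its 5′ UTR ratio of RPF to RNA was 4.51 in heart (3.05 to 6.93) and 2.10 in TA (1.54 to 2.89), above its coding ratios of 0.880 and 0.980 in both. Against every gene whose 5′ UTR held 1 RPM of RNA or more, this was log2 2.88 above the median in heart and 2.10 in TA (percentiles 95.9 of 3449 genes and 91.7 of 2469 genes). For Jun the same values were 2.22 and 1.51 (percentiles 91.6 and 84.4). Between the tissues Jund moved opposite to Jun, with its log2 ratio of 5′ UTR to coding RPF 0.59 lower in heart than in TA, at percentile 11.6. The table lists 1319 nt of 5′ UTR for Jund, while its matched GENCODE transcript has 109 nt, so which start site these reads belong to is not known here.

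In Fos 23 RPF reads lay in the 5′ UTR of 139 nt in heart and 15 in TA, beside 20 and 32 in the coding sequence. That made 51.9% of the gene's heart RPF (36.7 to 67.5%) and 31.7% of its TA RPF (19.1 to 47.1%). Of its RNA, 7.88% lay there in heart (1.66 to 21.4%) and 2.98% in TA (0.375 to 10.7%), from 3 and 2 reads. Junb had 12.2% of RPF in the 5′ UTR in heart (9.61 to 15.2%) and 3.62% in TA (1.69 to 6.86%), Klf4 4.15 and 4.14%, and Ier2 4.98 and 3.08%. Nr4a1 had 1.45% in heart (0.290 to 4.04%) and 0.176% in TA (0.0963 to 0.295%), from 3 and 14 reads. Klf2 had no 5′ UTR read, on a listed 5′ UTR of 16 nt that is too short to hold a footprint. Density in the 5′ UTR, relative to the coding sequence and with 0.1 RPM added, was at least 2-fold lower for 7 of 8 members in heart and 7 of 9 in TA, where 60.5 and 63.8% of all genes were. Both counts include Klf2, whose value rests on the added RPM alone, and are 6 of 7 and 6 of 8 without it. With 1 RPM added they were 2 of 8 and 4 of 9. Density was at least 2-fold higher for none of 8 in heart (8.05% of genes) and for 1 of 9, Fos, in TA (6.72%). The 8 in heart leave out Fos, whose coding RPF there was under the minimum of 1 RPM and whose 5′ UTR held 9.41 times its coding RPF density per nucleotide (4.94 to 18.1) from 23 and 20 reads.

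**Figure D4:**
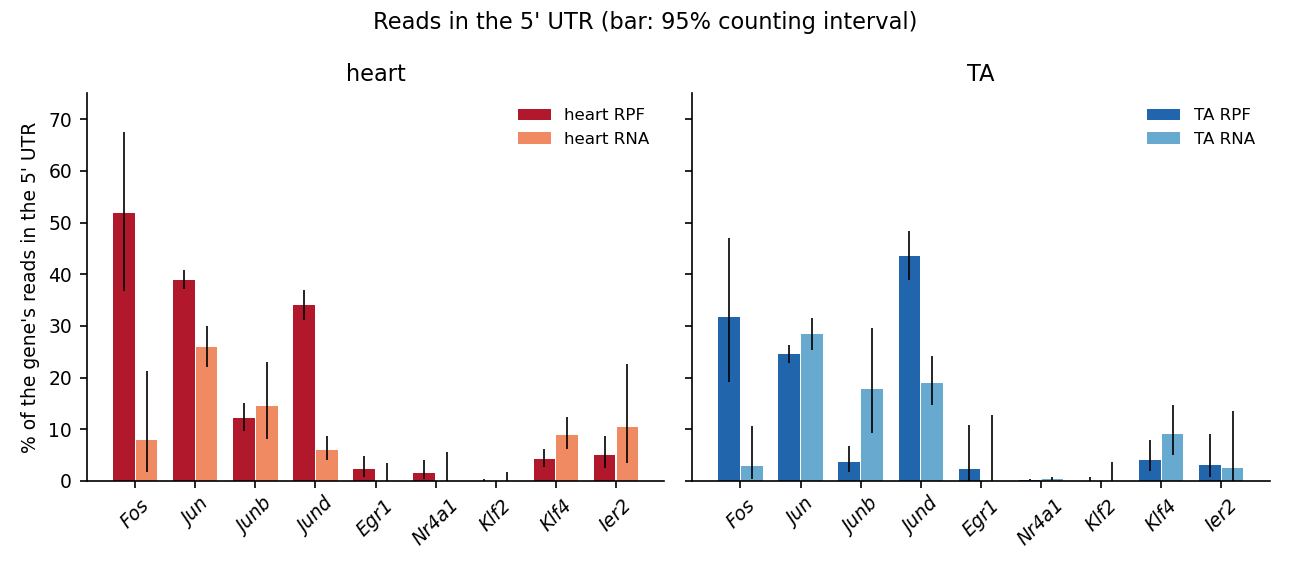
Share of each gene's reads that lay in the 5′ UTR, in percent, for RPF and RNA in heart (left panel) and TA (right panel), with exact 95% counting intervals as bars. Jund RPF stands at 34.0% in heart and 43.6% in TA, above its RNA in both; Jun RPF is above its RNA in heart and not in TA.

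For the related lists, the shares of all genes are 16% above and 17.8% below in heart efficiency, 15.4 and 18.7% in TA efficiency, and 35% higher and 3.88% lower in heart over TA RNA, where the median gene was at 0.70. Other immediate early genes, which encode phosphatases, decay factors, growth factors and cell cycle regulators, were listed in both tissues for 26 of 30. In heart efficiency 12 of 26 were at least 2-fold above the median gene and 3 below (median 0.74), between Cdkn1a, a cell cycle inhibitor, at 4.16 with 1.71 RPM of RNA, and Srf, serum response factor, at -1.77. In TA it was 10 of 23 above and 5 below (median 0.75). In heart over TA RNA 11 of 25 were at least 2-fold higher and 3 lower (median 0.90), between Ier3, a survival factor, at 2.92 and Sgk1, a serum and glucocorticoid induced kinase, at -2.01. Tsc22d1, the most abundant of them in heart RNA with 89.3 RPM, was at -0.12. Among the AP-1 partners 10 of 14 were listed in both, and 4 of 9 were at least 2-fold above the median gene in heart efficiency and 1 below (median 0.40). Atf2 was the lowest at -2.05 and also the most abundant, with 39.8 RPM of heart RNA. In heart over TA RNA 3 of 8 were at least 2-fold higher and 1 lower, between Fosl2, a Fos family subunit, at 1.67 and Maf at -2.91, with 4.17 RPM in heart and 32.0 RPM in TA.

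The rest of the Krüppel-like family, 10 of 15 listed in both, was centred lower than Klf2 and Klf4 in heart efficiency (median -0.47; 2 of 9 at least 2-fold above and 2 below), between Klf13 at 3.19 and Klf7 at -1.50. In heart over TA RNA 5 of 9 were at least 2-fold higher and none lower (median 1.12), between Klf3 at 2.01 and Klf9, a factor induced by glucocorticoids, at 0.06. Klf15, a metabolic regulator of heart and muscle, was the most abundant with 53.9 RPM in heart and 32.3 RPM in TA. Of the relatives and corepressors of Egr and Nr4a factors, 2 of 7 were listed in both: Nab2 had an efficiency of 1.28 in heart and Nab1 of -2.00, and their log2 heart over TA RNA ratios were 1.29 and 1.40.

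Upstream kinases and factors, 22 of 23 listed in both, lay near the median gene (heart efficiency -0.04, 4 above and 4 below; TA -0.15, 3 above and 5 below). Mef2a, the most abundant with 156 RPM in heart RNA, was at -0.22, and the values ran between Mef2c at 1.34 and Elk4, a serum response factor partner, at -2.17. In heart over TA RNA 3 of 22 were at least 2-fold higher and 1 lower (median 0.24), between Elk3 at 1.85 and Mef2c at -2.31. Factors of mRNA decay, 14 of 16 listed in both, had a median heart efficiency of -0.29 (3 above, 3 below), with Zfp36l2 at 1.80 and Cnot6 at -2.41, and a TA median of -0.41 (5 above, 5 below). In heart over TA RNA 7 of 14 were at least 2-fold higher (median 0.98), between Zfp36, which binds ATTTA repeats, at 1.96 and Cnot7 at 0.16. Cnot1, the scaffold of the deadenylase, was the most abundant with 390 RPM of RNA in heart.

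Over the 4 libraries of log2 coding RPM per kb, the genes nearest to the mean of the 9 members were Nucb2 (Euclidean distance 0.19), Tysnd1 (0.32) and 2610301B20Rik (0.32). The mean profile, on the log scale, was 10.7 RPM per kb of RPF and 6.49 of RNA in heart, and 8.65 and 3.70 in TA.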

How the data were processed

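RPF and RNA were measured in 4 libraries, with 1 library per group. The alignment target was RefSeq transcripts, per the labels. The submitters' processing notes name Bowtie and mm9. Versions, multi-mapping and the rule for listing a gene were not given in the sources used here. Deposited values are RPM for the coding sequence and both UTRs of 1 transcript model per gene, per the file headers, not divided by length. Depth was 28.1 (heart RPF), 9.28 (heart RNA), 28.5 (TA RPF) and 16.1 (TA RNA) x 1e6 coding reads. Reads were estimated from the step between low values: 100% lay within the rounding of 0.005 RPM of a whole multiple, but the RPF steps (0.0354 and 0.035 RPM) are close to the rounding, so RPF reads are less sure. No count test could be fitted with 1 library per group.

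The 10 members, 6 related lists and 7 marker lists were chosen with earlier results of these data known. All members were named; of each list, the most abundant member in heart RNA and the highest and lowest in heart efficiency and in heart over TA RNA. The value of 1 gene that this rule names is not reported here. Efficiencies were centred on the median of genes whose RNA reached 1 RPM, tissue ratios were not, and 2-fold was the threshold. Where a symbol had several rows (5 symbols in heart, 4 in TA), the row with the highest sum was kept. Ratio intervals are conditional Clopper-Pearson and shares are Clopper-Pearson, covering counting error only. GENCODE M21 transcripts were matched by accession for 99.2% of genes; the listed coding length was 6 nt shorter than GENCODE's in 99.0% of them. The files' build is mm9, so coordinates here are those of GRCm38 sequences. The scripts, tested on simulated data, used scipy 1.17.1, numpy 2.4.6, pandas 2.3.3 and matplotlib 3.10.9 under Python 3.11.15. Alternatives changed the pseudocount, the minimum, the rows, the centring, the scale, and trends on length or base composition.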

Additional observations from a re-analysis of the deposited data

How the results depend on the processing

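No paired analysis was possible because each group had 1 library. Counts of members past 2-fold are given for each setting that moved them by over 1.5 times. With a pseudocount of 1 RPM, none was lower in heart efficiency (1 as reported); 5′ UTR density was lower for 2 in heart and 4 in TA (7 and 7) and higher for 3 in TA (1). A minimum of 5 RPM left fewer members. None of 7 was then lower in heart efficiency (18.0% of genes), against 1 of 9 as reported. In TA efficiency 2 of 3 were higher (14.8% of genes), against 5 of 7. For heart over TA, 2 of 4 were higher in RNA (34.0% of genes) and 2 of 4 in RPF (29.3%), against 6 of 9 in each. The log2 ratios of those 4 did not change, so these counts fell through loss of members. None was higher in TA 5′ UTR density (1). With no minimum, 1, Fos, was higher in heart 5′ UTR density (0). Centred on the median gene, 2 were higher in heart RNA, and 1 was higher and 2 lower in heart RPF (6 and 1). Without the 50 most abundant genes, again 1 was higher and 2 lower in RPF. With uncentred efficiencies, 1 member, Nr4a1, was lower in heart efficiency than in TA (0). With reads of all 3 parts, an alternative added after the data were seen, none was lower in heart efficiency. A pseudocount of 1 RPM turned the log2 5′ UTR density to 0.17 for Ier2, 0.68 for Klf2 and 0.90 for Nr4a1 in heart, and to 1.14 for Egr1, 0.82 for Ier2 and 2.03 for Klf2 in TA, where 1 RPM exceeds the 5′ UTR reads themselves. The other causes were not tested. The trend on base composition was also an alternative added after the data were seen. RNA depth limits Fos and Ier2 in both tissues and Egr1 in TA, which had 8 to 34 reads of coding RNA. Junb (35), Klf2 (41) and Klf4 (49) in TA and Egr1 and Nr4a1 in heart (49 each) had few more.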

Other observations

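Footprints in 3′ UTRs were rare in both libraries, with a median gene at 0.686% of its RPF in heart and 0.361% in TA. Jun had 7.26 RPM there in heart, 7.34% of its RPF, against 2.13 RPM and 2.47% in TA. Klf2 had 1.13 RPM and 2.73% in heart against 0.42 RPM and 2.68% in TA. Ier2 had 0.39 RPM and 4.98% against 0.07 RPM and 2.15%, from 11 and 2 reads in the 3′ UTR. Jund was at 0.652% in heart and 0.633% in TA. Nr4a1, with 208 coding RPF reads in heart and 7935 in TA, was at 1.45 and 0.0503%. Its shares rest on only 3 and 4 reads in the 3′ UTR.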
